A study of Rattus norvegicus with 16 samples.

Results

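The enteric nervous system of the rat colon was represented by 9 genes: S100b, Gfap and Sox10 of enteric glia, Elavl4 and Uchl1 of neurons in general, and Chat, Vip, Nos1 and Tac1 of neurons that use one transmitter or another. Their probes were found through the RefSeq transcript that the array design assigns to each probe, with control spots left out. All 9 genes had a probe, and 12 probes matched them, out of 30367 probes and 15159 named genes on the array. Levels were measured in normal tissue of the distal colon from 16 male (ACIxF344)F1 rats aged 97 days, with 4 rats in each of 4 groups. The strain label of all 16 rats is (ACIxF344)F1-Pirc, those of the wild type rats included, and the genotype was taken from the genotype label. The groups were wild type Control, wild type DSS, Pirc/+ Control and Pirc/+ DSS rats. Pirc is a mutant allele of Apc, a tumor suppressor gene of the Wnt pathway, and the rats called Pirc here carried 1 copy of it. Dextran sodium sulfate (DSS), which damages the colonic epithelium and causes colitis, was given at 4% in the drinking water from day 40 to day 47 and again from day 54 to day 61. The tissue was therefore taken 36 days after the last DSS, and Control rats drank untreated water. The labels do not say which layers of the colon wall were taken.

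Enteric neurons lie in nets of ganglia in the gut wall, the myenteric plexus between the muscle layers and the submucosal plexus below the mucosa, and their fibers reach the crypts. Glia surround the cell bodies and follow the fibers into the mucosa. The mRNA of a neuron is mostly held in its cell body, so that a sample of mucosa contains little of it. Several of the 9 genes are also used elsewhere in the colon: Tac1 and Uchl1 in enteroendocrine cells, Chat in tuft cells and some lymphocytes, S100b in fat cells, and Sox10 in Schwann cells and melanocytes.

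The promoters of Tac1 and Uchl1, the 2 genes that rose in the DSS-treated Pirc rats, are given here with that of Vip, a neuropeptide gene that did not pass the threshold in any comparison. RefSeq on the GRCr8 assembly gave a promoter for 8 of the 9 genes, and none was found for Sox10. Each line gives the 250 bases before the start of the gene, read 5′ to 3′ on the gene's own strand. Capitals mark CGTCA, the core of the cyclic AMP response element, and TATAAA, the TATA box, on either strand, so that they may appear as TGACG or TTTATA.
Tac1: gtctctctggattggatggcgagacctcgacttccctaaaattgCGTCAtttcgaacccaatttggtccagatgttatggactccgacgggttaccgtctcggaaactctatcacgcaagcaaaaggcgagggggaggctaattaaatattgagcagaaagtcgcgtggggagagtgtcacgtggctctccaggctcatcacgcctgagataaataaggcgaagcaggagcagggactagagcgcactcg
Uchl1: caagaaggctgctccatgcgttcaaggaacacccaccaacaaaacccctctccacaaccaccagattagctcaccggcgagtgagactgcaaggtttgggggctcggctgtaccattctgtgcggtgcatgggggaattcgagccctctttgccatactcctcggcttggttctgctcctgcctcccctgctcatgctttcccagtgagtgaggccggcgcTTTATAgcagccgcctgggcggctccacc
Vip: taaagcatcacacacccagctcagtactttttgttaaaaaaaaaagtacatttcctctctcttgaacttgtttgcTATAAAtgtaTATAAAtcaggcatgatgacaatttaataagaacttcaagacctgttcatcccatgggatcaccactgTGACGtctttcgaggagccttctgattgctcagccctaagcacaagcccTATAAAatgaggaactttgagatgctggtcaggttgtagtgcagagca

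The Tac1 stretch lies at chr4:36645333-36645582 on the plus strand, that of Uchl1 at chr14:41849418-41849667 on the minus strand and that of Vip at chr1:44470230-44470479 on the plus strand. Over the 300 bases that also take in the first 50 bases of the gene, Tac1 held 56.0% G and C bases and 22 CG pairs. Uchl1 held 58.7% and 14 CG pairs, and Vip 44.0% and 4. The median of 33469 rat promoters of this length was 51.7% and 7 CG pairs. CGTCA was found in 21.2% of these promoters and TATAAA in 14.2%. Tac1 had 1 CGTCA, at base -206 from the start, and no TATAAA. Uchl1 had no CGTCA and 1 TATAAA, at base -29. Vip had 1 CGTCA, at base -97, and 3 TATAAA. Of the genes whose promoters are not printed, only Nos1 and Chat had CGTCA, and neither gene passed the threshold in any comparison. In Nos1 it lay at bases -119, -20, -9 and -6, with the full element TGACGTCA at base -9, and in Chat at base -174. These matches are a description of the letters only.

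Signals are given as levels on a log2 scale relative to the 75th percentile of the array, so that a level of 0 equals that percentile and a difference of 1 is a factor of 2. The percentile was between 875 and 2194 signal units on the 16 arrays, and between 71.1% and 80.3% of the spots were well above background as flagged by the scanner software. The tissue held colonic epithelium by its markers: 8 of 8 epithelial genes with a probe were above background on all 16 arrays. Of the 9 neuron and glia genes only Sox10 and Chat were above background on every array. Gfap was above background on 15 arrays, Uchl1 and Vip on 14, Tac1 on 13, Elavl4 on 2, and S100b and Nos1 on 0. The defining markers S100b, Elavl4 and Nos1 were thus nearly absent from these signals, and the precision of every comparison is limited by the 4 arrays in a group.

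Tac1 encodes the precursor of the tachykinins substance P and neurokinin A, which excite gut muscle and are released by enteric motor neurons and by sensory fibers. In the DSS-treated Pirc rats its levels were 0.43, 1.89, 1.45 and 1.18 in rats 12, 16, 20 and 24. In the untreated Pirc rats 11, 15, 19 and 23 they were -4.61, -5.09, -4.56 and -4.53. The DSS-treated Pirc rats lay far above every other rat, and the untreated Pirc rats lay above all wild type rats. In the wild type Control rats 13, 17, 21 and 25 Tac1 measured -6.12, -6.37, -5.98 and -6.59, the last not well above background. In the wild type DSS rats 14, 18, 22 and 26 it measured -6.35, -6.26, -6.73 and -6.63, with rats 22 and 26 not well above background. The 2 wild type groups overlapped. In order, the group means were -6.49 ± 0.22 in wild type DSS rats, -6.26 ± 0.27 in wild type Control rats, -4.70 ± 0.26 in Pirc Control rats and 1.24 ± 0.61 in Pirc DSS rats (SD, n = 4 each). Only the wild type groups differed by less than their spread.

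**Figure D1:**
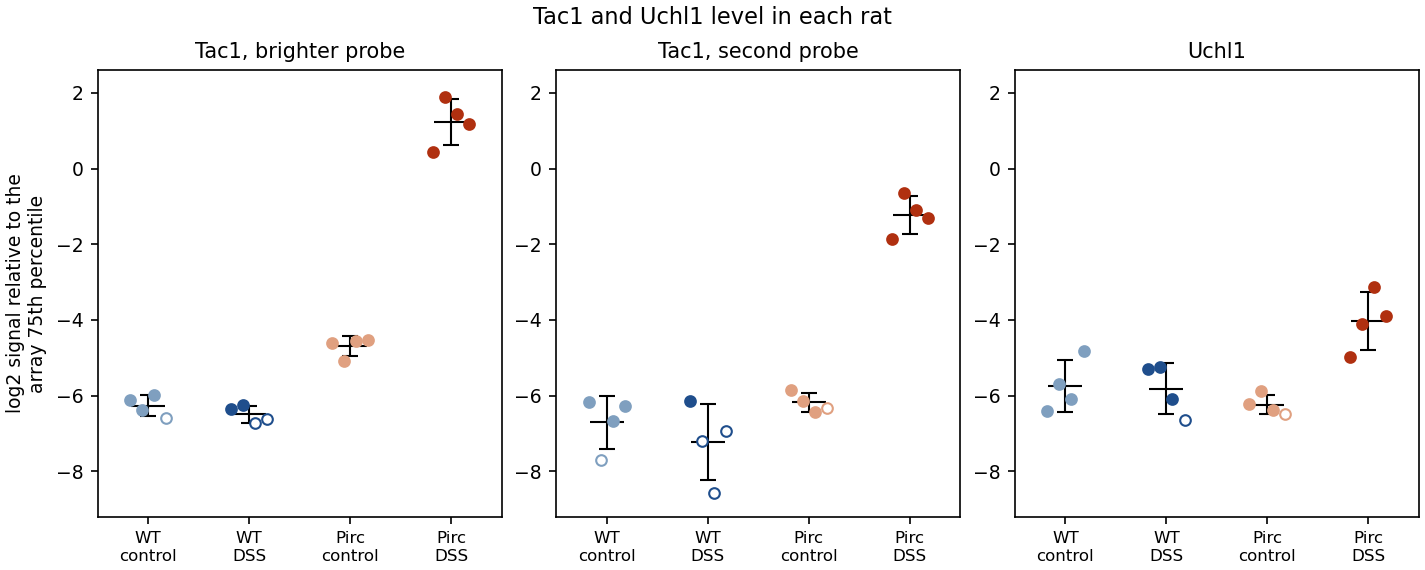
Level of Tac1, by its brighter and its second probe, and of Uchl1 in each of the 16 rats, in log2 units above or below that array's 75th percentile. Filled points are well above background and open points are not, and bars and whiskers give the mean and SD of 4 rats. The 4 DSS-treated Pirc rats sit highest in the panels of Tac1, between 0.43 and 1.89 for the brighter probe, while for Uchl1 one of them lies level with a wild type Control rat.

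DSS raised Tac1 in the Pirc rats by 5.93 (SE 0.26) on the log2 scale, a 61.1-fold higher signal with a 95% interval of 41.8 to 89.3, at an adjusted p of 2.11e-08 by limma. This was the smallest p-value of all 30367 probes in that comparison, while by the size of the rise it ranked 88 among the 30367. In wild type rats the DSS difference was -0.23 (SE 0.26, adjusted p = 0.754), with an interval from -0.78 to 0.32. The DSS effects of the genotypes differed by 6.16 (SE 0.36, adjusted p = 1.61e-06), again the smallest p-value of all probes. Within the first and the second slide, each with 2 rats of every group, this difference was 6.26 and 6.06. After DSS, Tac1 was 7.73 (SE 0.26) higher in Pirc than in wild type rats, at an adjusted p of 4.86e-10. With normexp background correction this difference was 5.33 (adjusted p = 1.58e-10).

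A second Tac1 probe, designed on another transcript and read from 1 spot per array, gave the same direction at lower signals. It measured -1.87, -0.65, -1.08 and -1.30 in the DSS-treated Pirc rats and -5.85, -6.14, -6.42 and -6.31 in the untreated Pirc rats. Those groups did not overlap, and the probe was above background on 11 arrays. It rose by 4.95 (SE 0.44) with DSS in the Pirc rats at an adjusted p of 4.70e-05, and its DSS effects differed between genotypes by 5.47 (SE 0.62, adjusted p = 0.00267). In wild type rats the DSS difference of this probe was -0.51 (SE 0.44, adjusted p = 0.652).

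Among untreated rats Tac1 was 1.57 (SE 0.26) higher in Pirc than in wild type by the brighter probe, a 2.96-fold higher signal, and the groups did not overlap. The adjusted p over all probes was 0.169, so that the difference did not pass the threshold, although only 3 probes had a smaller p-value in this comparison. A two-sided exact permutation test of these 8 rats gave p = 0.0286, the smallest that 4 against 4 allows, and 0.196 adjusted over 48 such tests. The difference was 1.74 on the first slide and 1.40 on the second. It passed when Pirc DSS rat 16 was left out of the fit (adjusted p = 0.0482), and with normexp background correction it was 0.41 (adjusted p = 0.470). The second probe gave 0.52 (SE 0.44, adjusted p = 0.749) with overlapping groups, so that the lead of untreated Pirc rats rests on 1 of the 2 probes.

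Uchl1 encodes a ubiquitin hydrolase that is abundant in neurons. Its levels in the DSS-treated Pirc rats 12, 16, 20 and 24 were -4.98, -4.10, -3.13 and -3.90. In the untreated Pirc rats 11, 15, 19 and 23 they were -6.22, -5.88, -6.37 and -6.48, the last not well above background. The wild type Control rats 13, 17, 21 and 25 had -6.40, -5.68, -6.09 and -4.83. The DSS-treated Pirc rats were above every untreated Pirc rat, but wild type Control rat 25 was slightly higher than Pirc DSS rat 12. Wild type DSS rats 14, 18, 22 and 26 had -5.31, -5.23, -6.09 and -6.65, the last not well above background, and overlapped with both Control groups. With the means in order, Pirc Control (-6.24 ± 0.26), wild type DSS (-5.82 ± 0.68) and wild type Control (-5.75 ± 0.68) did not differ beyond their spread, and Pirc DSS stood at -4.03 ± 0.76 (SD, n = 4 each).

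DSS raised Uchl1 in the Pirc rats by 2.21 (SE 0.41), a 4.62-fold higher signal with a 95% interval of 2.52 to 8.50, at an adjusted p of 0.00242 by limma. With normexp the rise was 1.13 (adjusted p = 0.00367). In wild type rats the difference was -0.07 (SE 0.41, adjusted p = 0.951), with an interval from -0.95 to 0.81. The difference between the DSS effects was 2.28 (SE 0.58) with an adjusted p of 0.203, so that the effect was not shown to differ between genotypes. It was 3.82 on the first slide and 0.74 on the second. Among DSS-treated rats Uchl1 was 1.79 (SE 0.41, adjusted p = 0.00921) higher in Pirc than in wild type, with values of 2.86 and 0.73 within the slides. With normexp background correction that difference was 0.67 (adjusted p = 0.0596) and no longer passed. Among untreated rats the Pirc difference was -0.49 (SE 0.41, adjusted p = 0.747).

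These 2 were the only genes among the 9 that passed the threshold of an adjusted p of 0.05 in any comparison, and both went up. In Pirc rats 2 of 9 rose with DSS and 0 fell, where 8.14% of all probes rose and 6.51% fell. Over both genotypes 2 of 9 rose and 0 fell, against 10.2% and 6.99% of all probes, with mean DSS effects of 2.85 (SE 0.18, adjusted p = 2.33e-06) for Tac1 and 1.07 (SE 0.29, adjusted p = 0.0187) for Uchl1. With quantile normalization Uchl1 no longer passed there, at 0.77 (adjusted p = 0.0650). In wild type rats 0 of 9 passed by limma or by a linear model without moderation, and 0 of 9 had an unadjusted p under 0.05. Of all probes 2.94% were higher and 0.899% lower at the threshold, and 16.8% had an unadjusted p under 0.05. The median DSS difference of the 9 genes was 0.34 in Pirc rats, 0.14 in wild type rats and 0.28 over both, beside 0.04, 0.09 and 0.06 for all probes. With 9 genes each call weighs heavily in such a share, and nothing is read from it about the genes as a group.

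Between the genotypes, 1 of 9 genes was higher in Pirc over both treatments and 0 lower, where 9.26% of all probes were higher and 8.27% lower. This was Tac1, at 4.65 (SE 0.18, adjusted p = 4.90e-09), and at 2.87 (adjusted p = 1.54e-08) with normexp background correction. After DSS, 2 of 9 were higher and 0 lower, beside 9.47% and 8.76% of all probes. Among untreated rats 0 of 9 passed by limma or without moderation, where 0% of all probes passed in either direction. There 1 of 9, Tac1, had an unadjusted p under 0.05, as did 10.2% of all probes. For the difference between the DSS effects 1 of 9 passed, Tac1, where 0.0428% of all probes passed as larger in Pirc and 0% as smaller. Both Tac1 probes were among these 13 probes, with those of the defensin genes Defa6, Defa8, Defa9 and RatNP-3b, of Slc30a2, Tbxt, Aqp4, Rpl39l1 and Tifa, and with 2 unnamed ones.

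Of the glial genes, none passed the threshold in any comparison. Sox10, the transcription factor that glia keep from the neural crest, had levels from -4.49 to -3.31 over all 16 rats. Its group means were -4.08 ± 0.26 in wild type Control, -4.04 ± 0.55 in Pirc DSS, -3.97 ± 0.30 in Pirc Control and -3.93 ± 0.31 in wild type DSS rats (SD, n = 4 each), and no neighbours in this order differed beyond their spread. The DSS difference over both genotypes was 0.04 with an interval from -0.35 to 0.42, and the Pirc difference over both treatments was -0.00 with an interval from -0.38 to 0.38. Gfap, the intermediate filament of astrocytes and enteric glia, averaged -6.13 ± 0.51 in wild type Control, -5.59 ± 0.35 in wild type DSS, -6.22 ± 0.43 in Pirc Control and -5.86 ± 0.73 in Pirc DSS rats. Its DSS difference over both genotypes was 0.45 (SE 0.25, adjusted p = 0.258), with an interval from -0.07 to 0.98. S100b, a calcium-binding protein used to stain enteric glia, was above background on none of the 16 arrays by either of its 2 probes.

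Of the neuron genes, Chat, the enzyme that makes acetylcholine, was measured on all arrays at -5.35 ± 0.13 in wild type Control, -5.14 ± 0.14 in wild type DSS, -5.48 ± 0.11 in Pirc Control and -5.48 ± 0.57 in Pirc DSS rats (SD, n = 4 each). The steps from Pirc Control to wild type Control and on to wild type DSS were larger than the SD within these groups, but neighbouring groups overlapped and neither step passed the threshold. Its DSS difference over both genotypes was 0.11 (SE 0.15, adjusted p = 0.726) and its Pirc difference over both treatments -0.24 (SE 0.15), with an interval from -0.57 to 0.08. Without Pirc DSS rat 16, the Pirc difference of Chat was -0.38 with an adjusted p of 0.00715.

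Vip, a peptide of neurons that relax muscle and drive secretion, had levels from -7.27 to -4.04 over the 16 rats. Its DSS difference over both genotypes was 0.42 (SE 0.40, adjusted p = 0.573), with an interval from -0.43 to 1.27, so that a change by a factor of 2 could not be told from none. Elavl4, an RNA-binding protein of neurons, was above background in Pirc Control rat 19 at -6.47 and in Pirc DSS rat 24 at -5.97, and in no wild type rat. Nos1, the neuronal nitric oxide synthase of inhibitory motor neurons, was above background on 0 arrays by either of its 2 probes. In a bulk sample fewer cells of a type and less RNA per cell cannot be told apart.

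**Figure D2:**
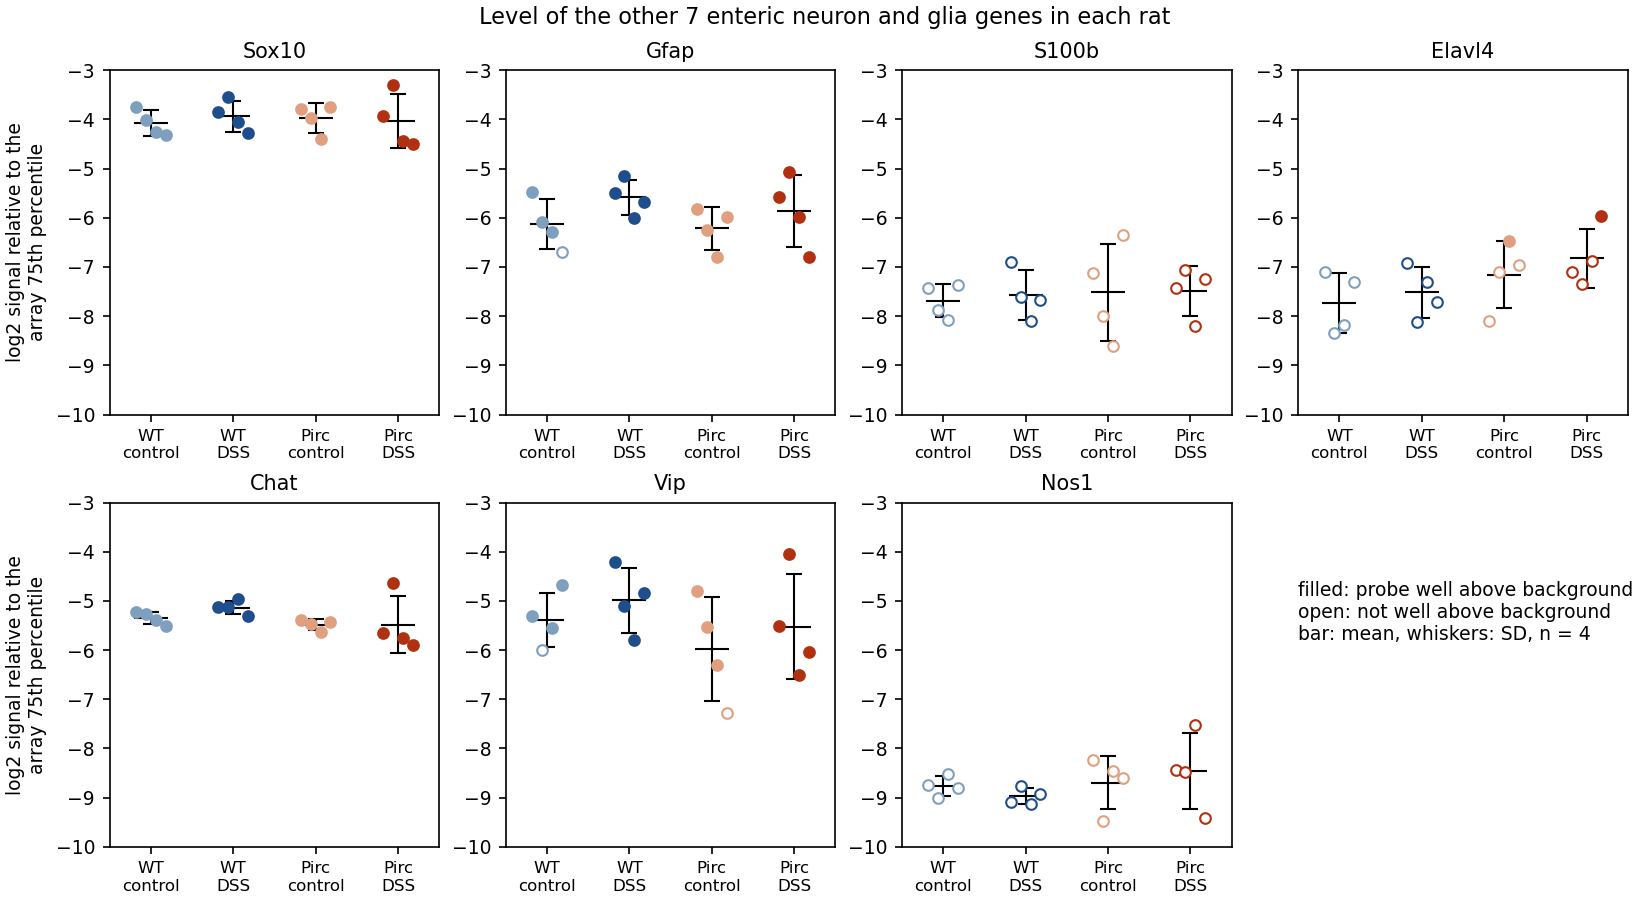
Level of the 7 neuron and glia genes that passed no comparison in each of the 16 rats, in log2 units above or below that array's 75th percentile. Filled points are well above background and open points are not, and bars and whiskers give the mean and SD of 4 rats. Groups next to each other in order of their means overlap for every gene, and S100b and Nos1 show open points only.

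Rat 16 of the Pirc DSS group was the highest of its group for Sox10 (-3.31), Gfap (-5.06), Vip (-4.04) and Chat (-4.64). The 75th percentile of its array, 875, was the lowest of the 16. Before scaling, its Sox10 signal (88.5) and Gfap signal (27.7) were second to those of rat 12 (120 and 39.7). Its unscaled Vip signal, 56.0, and Chat signal, 42.9, were still the highest of the group. The unscaled signals of these genes were low on all arrays, from 62.6 to 137 for Sox10, 24.7 to 48.2 for Chat, 15.7 to 39.7 for Gfap and 9.82 to 66.5 for Vip, while that of Tac1 reached 4020. Tac1 was likewise highest of its group in rat 16, at 1.89 and -0.65 by its 2 probes. Before scaling, the brighter Tac1 probe read 3241 in rat 16, below rats 20 (4020) and 24 (3830). The part of the scaling in the levels of Tac1 and the dim genes was not tested beyond the alternatives of the closing section.

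**Figure D3:**
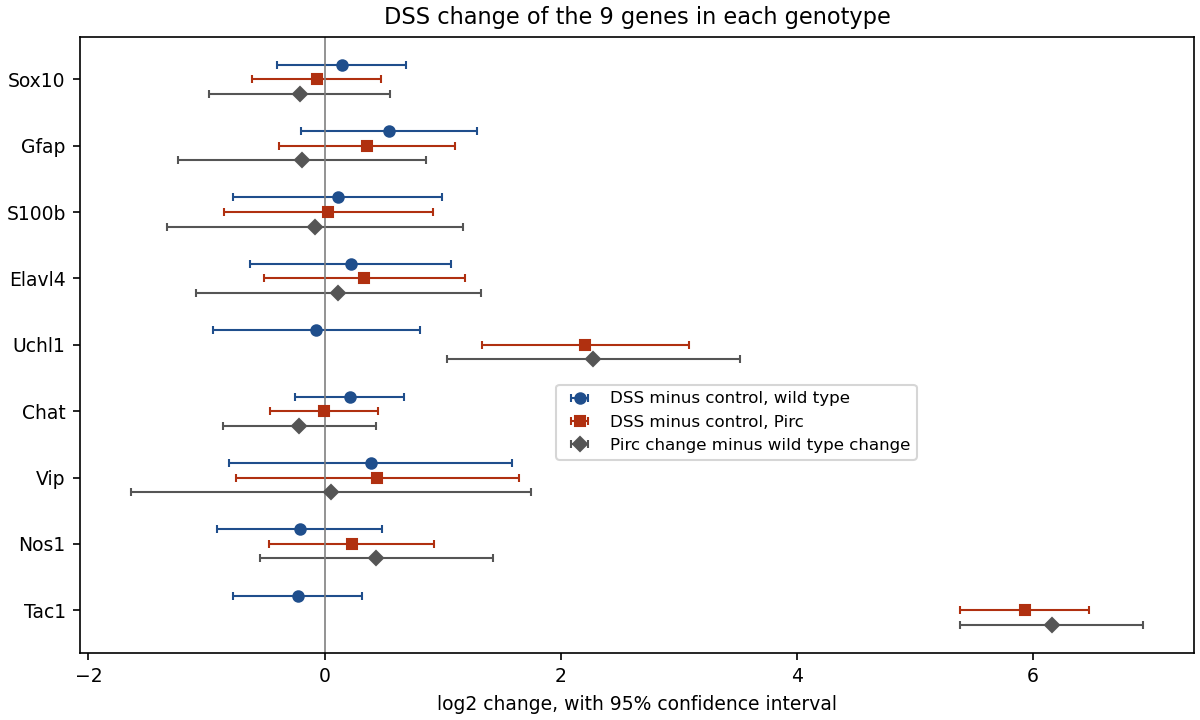
Log2 change with DSS of the 9 genes in wild type rats (circles) and Pirc rats (squares), and the Pirc change minus the wild type change (diamonds), with 95% confidence intervals from the fit over 16 arrays. Tac1 stands at 5.93 in Pirc and -0.23 in wild type rats, and Uchl1 at 2.21 and -0.07. The intervals of the other 7 genes all include 0, and those of S100b and Nos1 rest on signals not above background.

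Beyond the 9 genes, 79 further genes of the enteric nervous system were looked at in 5 lists, of which 73 had a probe and 42 were above background on all 4 arrays of at least 1 group. Their counts for DSS over both genotypes stand beside 10.2% of all probes that rose, 6.99% that fell and a median of 0.06, and with 14 to 16 genes in a list nothing is read from them about a list as a whole. Of 14 other glial and Schwann cell genes 2 rose with DSS over both genotypes and 0 fell, with a median of 0.16. The genes that rose were Sox2 and Gpm6b. Sox2, a transcription factor of glial progenitors that is also made by stratified squamous epithelium, was above background on 0 of 8 Control arrays, on all 4 Pirc DSS arrays and on 3 of 4 wild type DSS arrays. Its signal was at least 43.0-fold higher with DSS in Pirc rats (adjusted p = 0.000521), and in wild type rats the difference did not pass (adjusted p = 0.188). Gpm6b, a membrane protein of glia and neurons, was at least 2.20-fold higher with DSS in Pirc rats (adjusted p = 0.00706). In wild type rats it passed as higher with DSS (adjusted p = 0.0418), but was above background on 1 DSS array and on no Control array. No bound on that fold is given. After DSS, 1 of the 14 genes, Sox2, was higher in Pirc than in wild type rats and 3 were lower, beside 9.47% and 8.76% of all probes. The lower genes were Pmp22 by 1.47, Erbb3 by 0.66 and Entpd2 by 0.50 (adjusted p = 0.0106, 0.0486 and 0.00772 by limma). Pmp22 is also made by other cells. Over both treatments 0 were higher and 2 lower, Erbb3 and Entpd2, beside 9.26% and 8.27% of all probes.

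Of 15 other pan-neuronal genes 4 rose with DSS over both genotypes and 0 fell, where 10.2% of all probes rose, and the median was 0.41 beside 0.06 for all probes. Stmn2, which regulates microtubules in growing axons, rose by 1.63 (SE 0.34, adjusted p = 0.00387). The tubulin gene Tubb3 rose by 0.57 (SE 0.13, adjusted p = 0.00592) and the synaptic vesicle gene Syn1 by 0.62 (SE 0.18, adjusted p = 0.0275). The fourth was Gap43, above background on 1 array. In wild type rats 2 of these genes rose, Stmn2 by 2.15 (adjusted p = 0.0228) and Syn1 (adjusted p = 0.0421), beside 2.94% of all probes. In Pirc rats 2 rose, Tubb3 by 0.63 (adjusted p = 0.0294) and the dim Gap43, beside 8.14% of all probes. For the difference between the genotypes 0 of the 15 passed by limma and 0 had an unadjusted p under 0.05, where 0.0428% and 10.6% of all probes did.

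Of 16 other transmitter and neuropeptide genes 2 rose and 1 fell over both genotypes, beside 10.2% and 6.99% of all probes. Npy, neuropeptide Y, rose by 1.89 (SE 0.51, adjusted p = 0.0183), with means of -5.75 in Pirc Control, -3.35 in Pirc DSS, -3.75 in wild type Control and -2.37 in wild type DSS rats. Calcb, one of the CGRP genes of sensory and enteric neurons, rose by 0.99 (SE 0.27, adjusted p = 0.0215) over both genotypes, and its difference was 1.66 (SE 0.39) in the Pirc rats, and 0.31 (SE 0.39) in wild type rats. Ache, which breaks down acetylcholine, fell over both genotypes by 0.76 (SE 0.20, adjusted p = 0.0156), and among the Pirc rats by 1.19 (SE 0.28, adjusted p = 0.0113). Calca, the other CGRP gene, was above background on no wild type DSS array and on all 4 wild type Control arrays, at least 1.60-fold lower with DSS (adjusted p = 0.0304). After DSS, Calca was higher in Pirc than in wild type rats (adjusted p = 0.00556). It was above background on 3 of the 4 Pirc arrays, and no bound on that fold is given. For none of the 16 genes did the DSS effects of the genotypes pass as different by limma, and 3 had an unadjusted p under 0.05, beside 10.6% of all probes.

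Of 14 receptors for the transmitters that the 9 genes make, 2 rose and 2 fell over both genotypes, where all probes gave 10.2% and 6.99%. Chrnb4, a nicotinic acetylcholine receptor subunit of autonomic neurons, rose by 1.20 (SE 0.17, adjusted p = 0.000218) and the guanylate cyclase subunit Gucy1a1, the receptor of nitric oxide, by 0.42 (SE 0.10, adjusted p = 0.00977). Chrm3, the muscarinic receptor of muscle and epithelium, fell by 0.80 (SE 0.15, adjusted p = 0.00207) and the Vip receptor Vipr1 by 0.65 (SE 0.14, adjusted p = 0.00530). The substance P receptor Tacr1 had a DSS difference of -1.15 (SE 0.43, adjusted p = 0.0906) in the Pirc rats and of -0.67 (SE 0.43, adjusted p = 0.491) in wild type rats. The neurokinin receptors Tacr2 and Tacr3 had differences of -0.06 and 0.43 in the Pirc rats, with adjusted p of 0.958 and 0.623, Tacr3 being above background on no array.

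Of 14 development genes of the enteric nervous system 5 rose and 1 fell over both genotypes, against 10.2% and 6.99% of all probes. The growth factor Nrg1 rose by 2.92 (SE 0.27, adjusted p = 1.38e-05), the transcription factor Zeb2 by 2.47 (SE 0.40, adjusted p = 0.000656), the endothelin receptor Ednrb by 2.40 (SE 0.29, adjusted p = 7.30e-05) and the neurotrophin receptor Ngfr by 1.81 (SE 0.23, adjusted p = 0.000115). These 4 rose in each genotype, Ednrb by at least 5.26-fold in wild type rats, where no Control array was above background. Zeb2, Ednrb and Ngfr are made by neural crest cells, and also by other cells. Zeb2 is made by fibroblasts and leukocytes and Ngfr by stromal and basal epithelial cells. Which cells made these transcripts here was not tested. The fifth was Gdnf, above background on no array. Ret, the receptor of Gdnf on enteric neuron precursors, fell by 1.01 (SE 0.20, adjusted p = 0.00297) over both genotypes, and Edn3, the ligand of Ednrb, fell by 2.06 (SE 0.45, adjusted p = 0.00676) in the Pirc rats. Between the DSS-treated groups, the Pirc differences of Edn3 and Ret were -1.95 and -1.26 (adjusted p = 0.00922 and 0.00873).

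**Figure D4:**
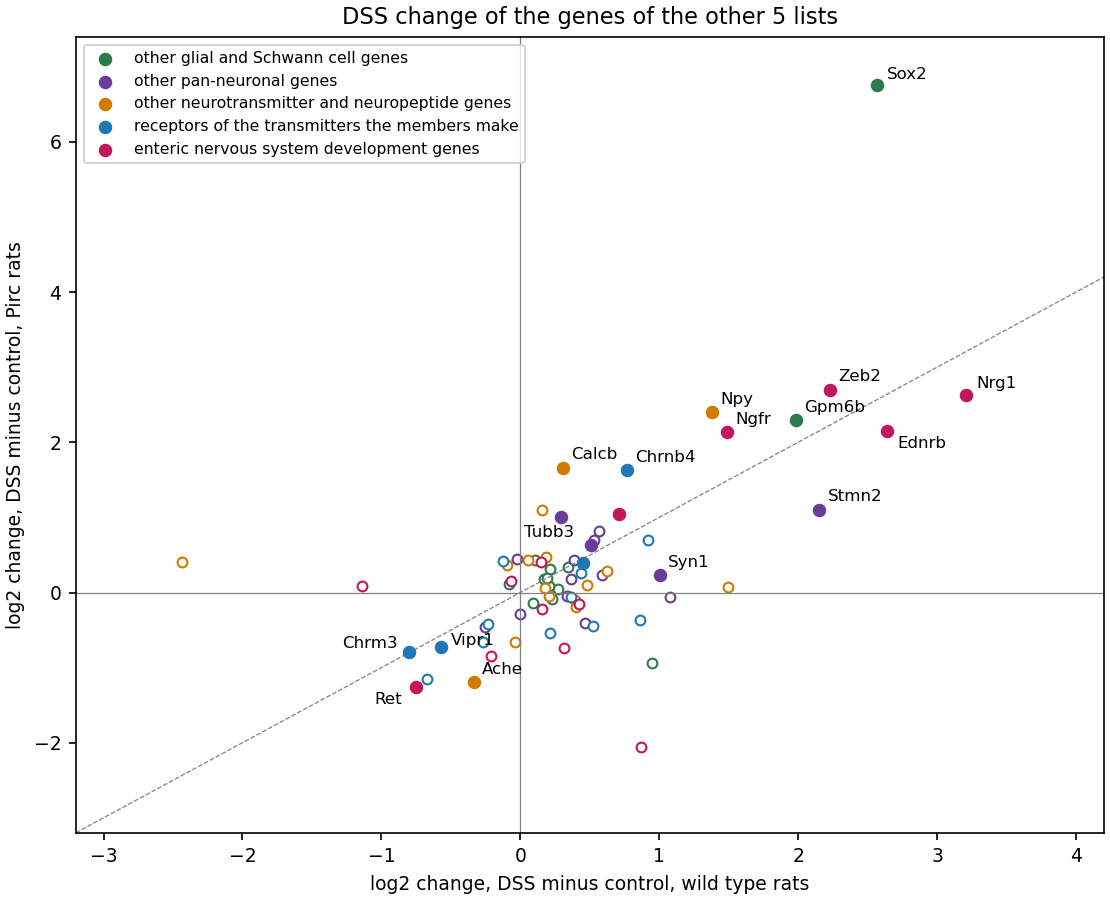
Log2 change with DSS in wild type rats (horizontal axis) and Pirc rats (vertical axis) of the 73 genes of the 5 further lists, as measured also for probes not above background. Filled points passed the threshold for the DSS effect over both genotypes, and those above background on all arrays of a group are named except Gucy1a1. The dashed line marks equal change, and Sox2 lies farthest above it, at 6.76 in Pirc and 2.57 in wild type rats.

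Markers of other cell types moved in the same comparison. Of 5 stratified squamous genes with a probe 4 rose with DSS in the Pirc rats, where 8.14% of all probes rose. Among the 4 were Krt5, by 5.05, and Krt14, by 5.84. In wild type rats 1 of the 5 rose, beside 2.94% of all probes. The mean level of that list lay between -4.43 and -3.69 in Pirc Control, between -0.24 and 1.57 in Pirc DSS, between -4.45 and -4.18 in wild type Control and between -4.28 and 1.21 in wild type DSS rats. Its highest value in a wild type DSS rat, 1.21, lay within the range of the Pirc DSS rats. All 5 fibroblast genes, 4 of 5 leukocyte genes and 2 of 2 fat cell genes with a probe rose in the Pirc rats as well. In wild type rats 4 of 5, 3 of 5 and 1 of 2 rose, beside 2.94% of all probes there. Of those that rose in Pirc rats, 4 fibroblast and 3 leukocyte genes were above background on all 4 arrays of at least 1 group. In wild type rats this held for 4 and 2. The part of these cells in the rise of Tac1, Uchl1 or the further genes was not tested.

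Of 9 enteroendocrine genes with a probe 0 rose and 1 fell with DSS in the Pirc rats, where 8.14% of all probes rose and 6.51% fell. Chga, the general marker of these cells, had a difference of -0.40 (SE 0.20, adjusted p = 0.207), and Tph1 of the serotonin-making cells 0.49 (SE 0.20, adjusted p = 0.116). The mean level of the list was from -0.88 to -0.71 in Pirc Control and from -1.22 to -0.46 in Pirc DSS rats. Of 6 tuft cell genes 4 fell, by 0.98 to 1.46, beside 6.51% of all probes. Chat had a difference of -0.00 (SE 0.21, adjusted p = 0.998) in the Pirc rats. Of 10 smooth muscle genes 0 rose and 1 fell, beside 8.14% and 6.51% of all probes. The mean level of this list was from -4.47 to -4.09 in Pirc Control and from -4.09 to -2.47 in Pirc DSS rats. It was from -4.27 to -2.03 in wild type Control and from -3.89 to -1.47 in wild type DSS rats. Over both treatments the Pirc difference was negative for all 10 genes, with a median of -0.63 beside -0.06 for all probes, and 0 passed the threshold. The 2 melanocyte genes with a probe were above background on 0 or 1 arrays. The part of enteroendocrine, tuft or smooth muscle cells in the levels of Tac1, Uchl1 or Chat was not tested.

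The genes most like Tac1 over the 16 arrays, among 11707 probes of other named genes bright on all of them, were Prodh, Slc7a9 and Zc3h7b, with Pearson's r of 0.961, 0.954 and 0.953. After the group means were taken out, r was 0.18, 0.49 and 0.63, so that the likeness lay mostly between the groups. Those most like Uchl1 were Padi1 (0.907), Cbx6 (0.905) and Eya2 (0.903). For Sox10 they were Slc24a2 (0.964), Or51b6 (0.942) and Npas2 (0.937), for Gfap Matn1 (0.941), Ptgdr2 (0.939) and Gpr165 (0.920), for Chat Ggn (0.936), Atp7b (0.924) and Grin2c (0.915), and for Vip Nudcd3 (0.808), Acta2 (0.802) and Tox (0.791). Within the groups r was 0.94 to 0.97 for Sox10 and for Gfap, and 0.90 to 0.93 for Chat. It was 0.75 to 0.83 for Vip and 0.65 to 0.80 for Uchl1. The arrays share the scaling to their 75th percentile, and these values are descriptions without a test.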

How the data were processed

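Total RNA of normal distal colon from 16 rats was labelled with Cy3 and hybridised to 1-colour Agilent arrays, 8 to a slide. For every array the authors deposited a linear intensity for each spot, written by Agilent Feature Extraction 10.7.3.1 (design build rn4 per the file headers) after background was subtracted and without scaling between arrays. The deposited flags for spots well above background, saturated spots (0 here) and outlier spots are 0 or 1, and the labels also name Partek.

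Of 62976 spots 4259 controls were left out, and the others belong to 30367 probes. The transcript accession of a probe was looked up among RefSeq genes of GRCr8, which gave 18006 probes 1 symbol and 12361 none. No coordinates of probes are given because the builds differ. The log2 intensity minus the log2 of the 75th percentile of the array was taken as the mean of a probe's spots, those flagged as outliers left out. For 25 probe values all spots were flagged and kept. A probe counts as above background on an array if over 50% of its spots are so flagged, and as bright in a group if this holds on all 4 arrays. Of several probes of a gene the one with the highest mean level was counted.

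A moderated linear model (limma 3.58.1, R 4.3.3) of 4 group means was fitted to all 16 arrays, two-sided, with Benjamini-Hochberg adjustment over all probes and a threshold of 0.05 whatever the size. SE is the standard error of the fitted difference. There were 7 comparisons. A probe above background on no array of a group has only a bound there, so "at least" folds set the mean of the brighter group against the higher of the dim signal and the lowest signal well above background on each array. Such folds are given only where the brighter group was above background on all 4 arrays. The fit was tested on simulated data with 200 changed probes. All 9 genes are named, and from the further lists at most 4 rises and 4 falls per comparison that passed and were bright in a group, with the tachykinin receptors and the dim genes counted named beside them after their values were seen. The 9 genes, lists and tests were chosen with earlier results of these data known. Alternatives were quantile normalization, normexp (offset 50, on the median signal since no mean signal was in the files), a common floor, dim probes left out, averaged probes, flagged spots kept, slide as a block, only the compared groups, no moderation, a factor of 2, and each rat left out.

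The labels tell rats within a group apart only by number. The p-values of limma set a group difference against the spread between rats within groups, moderated over all probes. Each rat gave 1 array, so that this spread includes that of the arrays. Because each group occupied 1 column of both slides, an effect of the column cannot be told apart from the group. Of all pairs of arrays 0 were identical. Motifs were searched on both strands.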

Additional observations from a re-analysis of the deposited data

Results flagged for a closer look

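The Tac1 level of untreated Pirc rat 15, -5.09, lay apart from the other 3 rats of its group, which were between -4.61 and -4.53. Among the 36 groups of 4 rats looked at for such a rat, 1 was found, where 1.8 would be found by chance. Its level was above that of every wild type rat.

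The DSS effects on Tac1 differed between the genotypes by 6.16 for the brighter probe and by 5.47 for the second, both past the threshold of limma (adjusted p = 1.61e-06 and 0.00267). All 4 DSS-treated Pirc rats were higher than all other rats for both probes.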

How the results depend on the processing

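The DSS rise of Tac1 in Pirc rats was between 5.01 and 6.20 under 26 alternatives and its difference between the genotypes between 4.92 and 6.46 under 25, all past the threshold. Its Pirc difference was between 2.87 and 4.78 over both treatments and at least 5.33 after DSS, also past it throughout. The DSS rise of Uchl1 in Pirc rats was between 1.13 and 2.53 under 26 alternatives, all past it. With quantile normalization 1 of the 9 genes passed for DSS over both genotypes in place of 2, Uchl1 having 0.77 (adjusted p = 0.0650). With normexp 1 passed for Pirc in DSS-treated rats in place of 2, Uchl1 having 0.67 (adjusted p = 0.0596).

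Signs turned only for differences that passed in no setting. With quantile normalization the DSS differences over both genotypes were -0.19 for S100b, -0.19 for Sox10, -0.12 for Elavl4, -0.18 for Nos1 and -0.20 for Chat. With normexp the DSS differences in wild type rats were 0.084 for Uchl1 and 0.087 for Tac1, and the Pirc differences over both treatments -0.22 for S100b, -0.15 for Elavl4 and -0.22 for Nos1. The common floor gave S100b -0.037 for DSS over both genotypes, and averaging its probes gave -0.10 for Pirc over both treatments. The cause was not tested. The median DSS difference of all probes over both genotypes was 0.06 as reported, -0.09 with quantile normalization and 0.15 with normexp, and the median Pirc difference -0.06, -0.04 and -0.18.

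Leaving out each rat in turn, the genes that passed numbered 1 to 2 for Pirc over both treatments, 0 to 1 for Pirc in untreated rats and 2 to 3 for Pirc in DSS-treated rats. These changes came without Pirc DSS rat 16, when Chat passed at -0.38 (adjusted p = 0.00715) and Tac1 in untreated rats at 1.57 (adjusted p = 0.0482). Over these fits the Pirc difference of Chat was -0.38 to -0.17 and that of Tac1 in untreated rats 1.46 to 1.70. DSS differences over both genotypes ran from -0.11 to 0.26 for S100b, -0.084 to 0.11 for Sox10, -0.15 to 0.17 for Nos1 and -0.036 to 0.17 for Chat, that of Uchl1 in wild type rats from -0.29 to 0.24, and the Pirc differences over both treatments from -0.069 to 0.31 for S100b and -0.12 to 0.075 for Sox10.

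With only the compared groups in the fit, the means over both genotypes or treatments have no value, and S100b, Nos1 and Elavl4 have none when dim probes are left out. No paired analysis was possible because the groups share no rat numbers and no label ties rats of different groups to each other. With slide as a block all 35 recomputed results kept their direction and their side of the threshold. S100b, Nos1 and Elavl4 are limited by signals at the background, and the other genes by 4 rats in a group.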
